A study of Mus musculus with 24 samples.

Results

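Adipokines are proteins that fat tissue releases into the blood or its own surroundings. The group described here holds 9 genes, found by symbol among the 24421 gene symbols counted in every library: Lep (leptin), Adipoq (adiponectin), Retn (resistin), Apln (apelin), Cfd (adipsin, complement factor D), Rbp4 (retinol binding protein), Lcn2 (lipocalin), Nampt (visfatin) and Rarres2 (chemerin). All 9 were found, and all 9 passed the filter on low counts in every comparison, so none is missing from what follows.

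The study sequenced total RNA from adipose tissue of C57BL/6 mice at 2 months of age. WT mice were set beside mice whose STAT5B carries phenylalanine (Y665F) or histidine (Y665H) in place of a tyrosine, and both sexes were collected. This gives 6 groups of 4 libraries, 24 in all: WT, Y665F and Y665H females, and WT, Y665F and Y665H males, with no treatment in any of them. The title of the series places the residue in the SH2 domain and calls the mutations disease-associated, so each comparison with WT asks how a mutation shifts the fat transcriptome in one sex. The labels name neither the fat depot nor whether the mutation was carried on 1 or both alleles. They also do not say that the libraries of a group came from separate animals, and p-values then measure only the spread between these samples, which may be technical.

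Leptin reports the size of fat stores to the hypothalamus, and adiponectin raises insulin sensitivity in liver and muscle. Resistin and RBP4 are linked to insulin resistance in rodents, adipsin is the serine protease that starts the alternative complement pathway, and chemerin attracts immune cells through the receptor CMKLR1. Apelin acts on the receptor APLNR of blood vessels, lipocalin 2 binds bacterial iron carriers, and NAMPT is an enzyme of NAD salvage that is also secreted. STAT5B carries the signal of growth hormone and other cytokines to DNA, and it binds elements of the form TTCNNNGAA.

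In GRCm38 and GENCODE vM21, Lep lies at chr6:29060220-29073877 (+ strand), Cfd at chr10:79890853-79892655 (+), Rarres2 at chr6:48569696-48572789 (-), Apln at chrX:48025146-48034853 (-), Rbp4 at chr19:38116629-38125281 (-) and Lcn2 at chr2:32384633-32388252 (-). Upstream sequence is shown for the adipokines that differed in a comparison with WT or between WT sexes and that have an entry in the RefSeq promoter table (GRCm38.p6), which lists 8 of the 9 genes. Rarres2 has no entry. Each line gives the 250 bases before the transcription start, 5′ to 3′ on the strand of the gene, and capitals mark a match to 1 of the 4 motifs searched on both strands.
Lep (chr6:29059971-29060220, + strand): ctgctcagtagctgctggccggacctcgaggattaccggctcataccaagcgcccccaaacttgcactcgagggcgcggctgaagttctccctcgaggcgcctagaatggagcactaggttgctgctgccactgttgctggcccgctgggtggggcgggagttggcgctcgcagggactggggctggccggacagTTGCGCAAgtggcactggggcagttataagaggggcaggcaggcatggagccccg
Apln (chrX:48034854-48035103, - strand): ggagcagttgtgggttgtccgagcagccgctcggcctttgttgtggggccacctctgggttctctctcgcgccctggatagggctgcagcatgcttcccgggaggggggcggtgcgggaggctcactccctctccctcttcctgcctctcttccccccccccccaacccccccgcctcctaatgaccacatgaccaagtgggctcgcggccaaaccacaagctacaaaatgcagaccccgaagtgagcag
Cfd (chr10:79890603-79890852, + strand): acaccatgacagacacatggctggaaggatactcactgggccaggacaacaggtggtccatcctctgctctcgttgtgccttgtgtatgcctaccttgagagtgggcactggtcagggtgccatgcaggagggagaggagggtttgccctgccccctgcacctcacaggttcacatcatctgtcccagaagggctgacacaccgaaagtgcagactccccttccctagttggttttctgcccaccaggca
Rbp4 (chr19:38124812-38125061, - strand): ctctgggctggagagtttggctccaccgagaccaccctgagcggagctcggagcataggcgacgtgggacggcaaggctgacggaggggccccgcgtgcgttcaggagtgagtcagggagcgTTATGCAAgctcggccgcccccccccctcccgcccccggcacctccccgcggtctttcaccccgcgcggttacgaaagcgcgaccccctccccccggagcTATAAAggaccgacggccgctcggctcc
Lcn2 (chr2:32387740-32387989, - strand): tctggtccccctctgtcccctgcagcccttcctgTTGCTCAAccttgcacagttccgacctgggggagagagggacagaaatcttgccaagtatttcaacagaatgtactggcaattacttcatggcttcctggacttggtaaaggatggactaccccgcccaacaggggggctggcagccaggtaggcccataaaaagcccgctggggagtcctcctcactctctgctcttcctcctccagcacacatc

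The STAT5 element TTCNNNGAA was in 7.02% of the 32851 promoters of the table and in none of the 8 adipokine promoters within these 250 bases. The C/EBP element, searched as TTGCNNAA, was in 9.56% of all promoters and in 3 of the 8, those of Lep (bases 55 to 48 before the start), Rbp4 (128 to 121) and Lcn2 (216 to 209). A TATA box (TATAAA) lay 28 to 23 bases before the Rbp4 start shown and was in 12.4% of all promoters. The PPAR and RXR element, AGGTCA written in tandem with 1 free base between the copies, was in 0.0335% of all promoters and in none of the 8. Rbp4 has a second listed start, whose 250 bases hold none of the 4 motifs. A match is a string of letters and no evidence of binding, and its absence says only that the letters are not in this window.

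Per kilobase of exon, Cfd was the most abundant adipokine transcript in all 6 groups and Adipoq the second. Levels are in CPM, the counts of a gene scaled to the same total of counts on gene symbols in every library, and are divided by the exon length of the gene where genes are compared. In WT females the order was Cfd (mean 5016 CPM per kb), Adipoq (1358), Retn (587), Lep (361), Rbp4 (297), Rarres2 (24.0), Nampt (18.7), Apln (9.28) and Lcn2 (0.199). The ranges of neighbours in this order did not overlap, except those of Rarres2 and Nampt. In Y665H females Lep stood below Rbp4 (172 against 241 CPM per kb, with overlapping ranges) and Rarres2 below Nampt (13.0 against 26.03, without overlap). In WT males Lcn2 was not the lowest, with a mean of 141 CPM per kb and a range from 3.25 to 488. Nor was it in Y665F males, with 8.14 against 7.43 CPM per kb for Apln and overlapping ranges. In Y665H males it was the lowest, with 10.7 against 11.8 CPM per kb for Apln, again with overlapping ranges. Together the 9 genes took 0.577% of gene counts in Y665F males, the lowest group mean, and 1.24% in Y665H females, the highest.

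**Figure D1:**
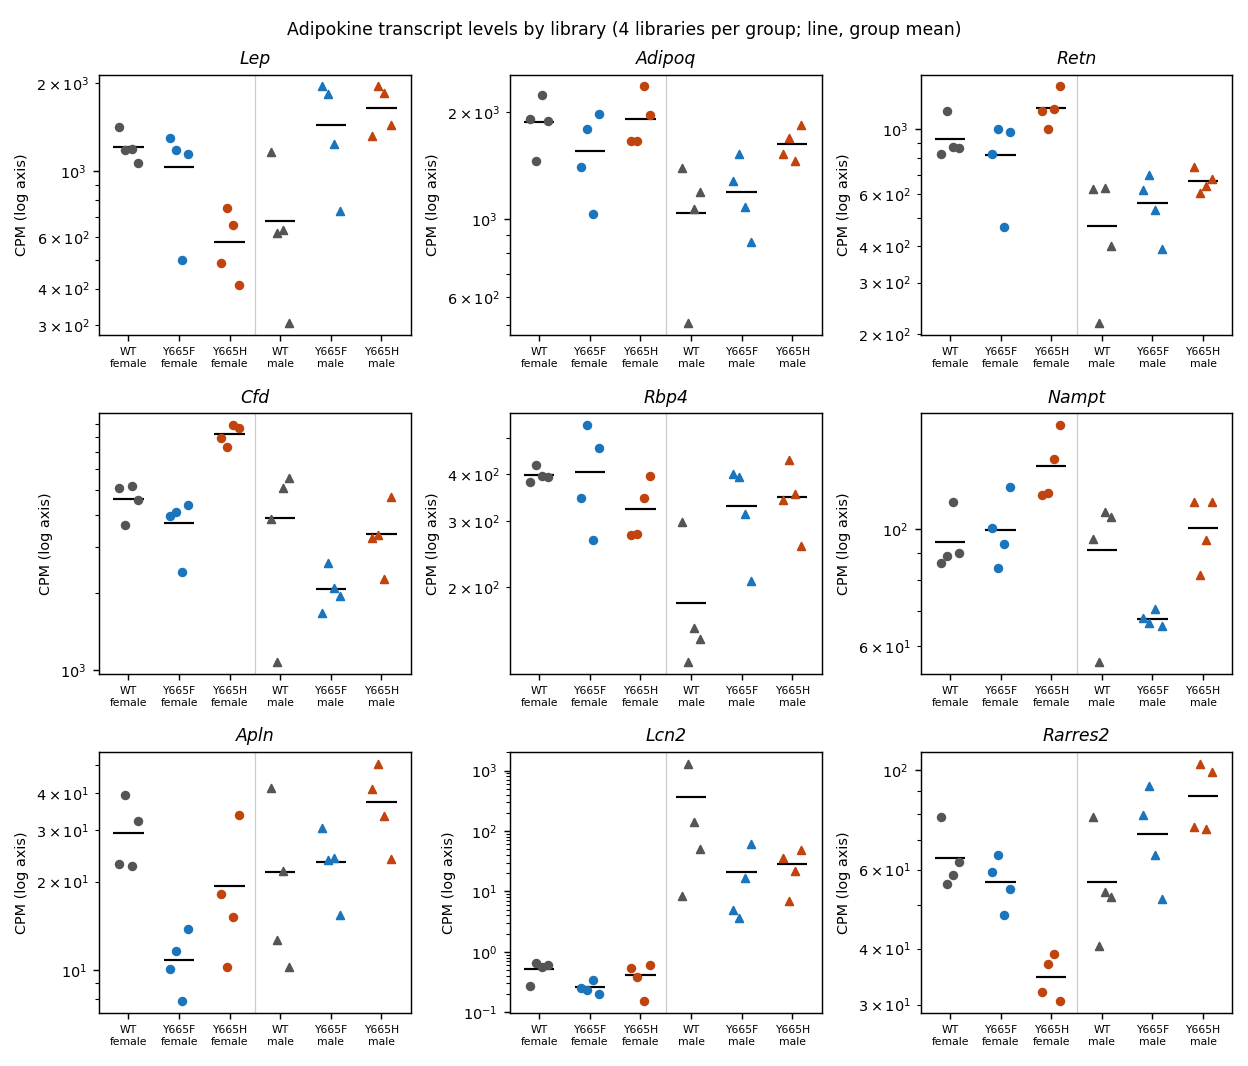
CPM of each adipokine (log axis, each panel with its own range) in the 24 libraries, with females left of the grey line, males right of it, and a bar at each group mean. Y665H females sit above all other groups for Cfd and below all for Rarres2, and Lcn2 is at 0.648 CPM or lower in females while the males spread from 3.64 to 1279.9 CPM.

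The libraries held from 20982647 to 41345247 counts on gene symbols, so that 3 counts, the least taken as detected, correspond to 0.0726 to 0.143 CPM, a limit that covers counting error only. Stat5b itself averaged 94.7 to 115 CPM over the 6 groups, which does not test the genotype labels because an exchanged codon need not alter the amount of transcript. The ribosomal RNA gene Rn45s took 3.27 to 15.0% of gene counts. Adipocyte markers (12 genes, among them Plin1, Fabp4 and Lipe) were high in every library, with a summed level from 10228 CPM in a WT male to 28763 CPM in a Y665H female. Markers of the epididymis summed to 2.47 CPM or less in all females, and in males ranged from 0.502 to 14903 CPM. Spread was widest in the comparisons with WT males. The biological coefficient of variation, pooled over both groups of a comparison, was 47.2% for Y665F and 46.6% for Y665H against WT males. It was 33.0% between the male mutants, and 26.6% for Y665F and 21.7% for Y665H against WT females.

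In Y665H females, leptin and chemerin transcripts were lower and adipsin transcripts higher than in WT females. A gene counts as changed where its Benjamini-Hochberg adjusted p in edgeR's quasi-likelihood test was under 0.05 over all genes tested. By this rule 1 adipokine rose and 2 fell, among 15469 tested genes of which 1.53% rose and 1.8% fell (3.34% in all). The adipokines had a median log2 fold change of -0.29, beside -0.00 for all genes.

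Lep, the hormone of energy stores, measured 1412, 1184, 1188 and 1067 CPM in the 4 WT female libraries and 489.7, 749, 658 and 411 CPM in the Y665H females. Every Y665H library lay below every WT library. The log2 fold change was -1.06 (SE 0.18), a 2.08-fold lower level, with an adjusted p of 0.0250 in edgeR. Adipoq did not follow: its log2 fold change was 0.04 (SE 0.16), with 1659 to 2366 CPM in Y665H and 1459.7 to 2243 CPM in WT females.

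Cfd, the complement protease, was the member with the highest level and moved the other way. Its libraries held 5077, 3653, 5193 and 4578 CPM in WT females and 7932, 7346, 8909 and 8693 CPM in Y665H females, with no overlap. The log2 fold change was 0.85 (SE 0.13), a 1.80-fold higher level, with an adjusted p of 0.0210 in edgeR. Rarres2, whose product is cut by proteases into the chemoattractant chemerin, held 78.5, 55.7, 58.4 and 62.3 CPM in WT females and 32.0, 36.9, 38.8 and 30.6 CPM in Y665H females. Here too the groups did not overlap, and the log2 fold change was -0.87 (SE 0.12, adjusted p 0.0141 in edgeR). Exons of Rarres2 overlap those of Lrrc61 on the opposite strand, and the strand setting of the counting is not given in the sources used here, so reads of the pair cannot be told apart with certainty. Lrrc61 was the lower of the pair, at 16.5 CPM ± 2.5 (SD, n = 4) in WT and 21.1 CPM ± 1.83 (SD, n = 4) in Y665H females, and it was not called (log2 fold change 0.37).

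Nampt just missed the threshold in edgeR, with a log2 fold change of 0.49 (SE 0.12) and an adjusted p of 0.0576, although its 4 Y665H female libraries (116 to 157 CPM) all lay above the WT ones (86.2 to 113 CPM). In DESeq2 it passed, with an adjusted p of 0.00425. Retn (0.36), Rbp4 (-0.29), Apln (-0.59) and Lcn2 (-0.29) did not pass, and their ranges overlapped those of WT females. Members without overlap between these groups were thus 2 higher and 2 lower of 9, beside 6.45% and 6.81% of all genes (13.3% in all).

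The 12 adipocyte markers were near level between these groups, with 5 higher, 7 lower, none called and a median log2 fold change of -0.00. Their summed level ran from 25924.5 to 28763 CPM in Y665H and from 26708 to 28592 CPM in WT females. Other markers differed between these groups. All 6 thermogenic genes were above 0 with a median of 0.77 and 1 call, Elovl3, and their sum was 39.8 to 211 CPM in Y665H and 41.7 to 90.2 CPM in WT females. Elane, the 1 neutrophil gene tested of 7 counted, was called higher at 1.02, and Alb, 1 of 3 hepatocyte genes, was called lower. The 7 neutrophil genes summed to 2.47 to 2.74 CPM in Y665H and 1.30 to 1.87 CPM in WT females. A change of neutrophils cannot be read from 1 gene. Macrophage genes were below 0 in 7 of 8 cases (median -0.30) and endothelial genes in 5 of 6 (median -0.21), with none called. Their part in the values of the adipokines was not tested. With the mean level of the 12 adipocyte markers alone as a covariate, the calls of Lep (adjusted p 0.0346), Cfd (0.0306) and Rarres2 (0.0217) in edgeR were kept. Each call was lost without some single library: Lep and Cfd without WT female 1 or 4 or Y665H female 1 or 3, and Rarres2 without WT female 4 or Y665H female 1, with adjusted p up to 0.0931 for Lep, 0.0925 for Cfd and 0.0612 for Rarres2. When all 24 libraries shared 1 estimate of the spread, Lep (adjusted p 0.159) and Cfd (0.212) were no longer called in edgeR and Rarres2 was.

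Beside 1.8% of all genes that fell and 1.53% that rose in Y665H females, 1 of the 12 receptors and binding partners of adipokines fell and none rose. This was Slc22a17, a receptor of lipocalin 2, at 22.3, 25.4, 24.6 and 18.9 CPM in Y665H against 34.8, 31.9, 28.9 and 39.1 CPM in WT females (log2 fold change -0.55, SE 0.12, adjusted p 0.0476 in edgeR). Its call was kept in only 1 of the 8 fits that each left out a library. Of the 7 alternatives with every library it was kept under 3, and it was lost with all 24 libraries in 1 fit. The leptin receptor Lepr (log2 fold change 0.03), the chemerin receptor Cmklr1 (-0.21) and the adiponectin receptors Adipor1 (-0.04) and Adipor2 (0.45, adjusted p 0.0624 in edgeR) did not pass. Of the 19 other secreted adipose factors found in the files, 14 were tested, of which 2 fell and none rose, beside the same shares of all genes. Sfrp5, a secreted Wnt inhibitor of fat, held 2.10 to 4.50 CPM in Y665H and 7.78 to 45.4 CPM in WT females (log2 fold change -2.75, SE 0.50, adjusted p 0.0297 in edgeR). Retnla, a resistin-like protein of alternatively activated macrophages, held 47.9 to 90.1 CPM against 121 to 133 CPM (-1.03, SE 0.18, adjusted p 0.0248). Without 1 library at a time, the call of Sfrp5 was kept in 2 of 8 fits and that of Retnla in 3 of 8, and with all 24 libraries in 1 fit Retnla was not called. None of the 12 genes for adipokine transcription and secretion, such as Pparg, Cebpa and Erp44, was called.

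**Figure D2:**
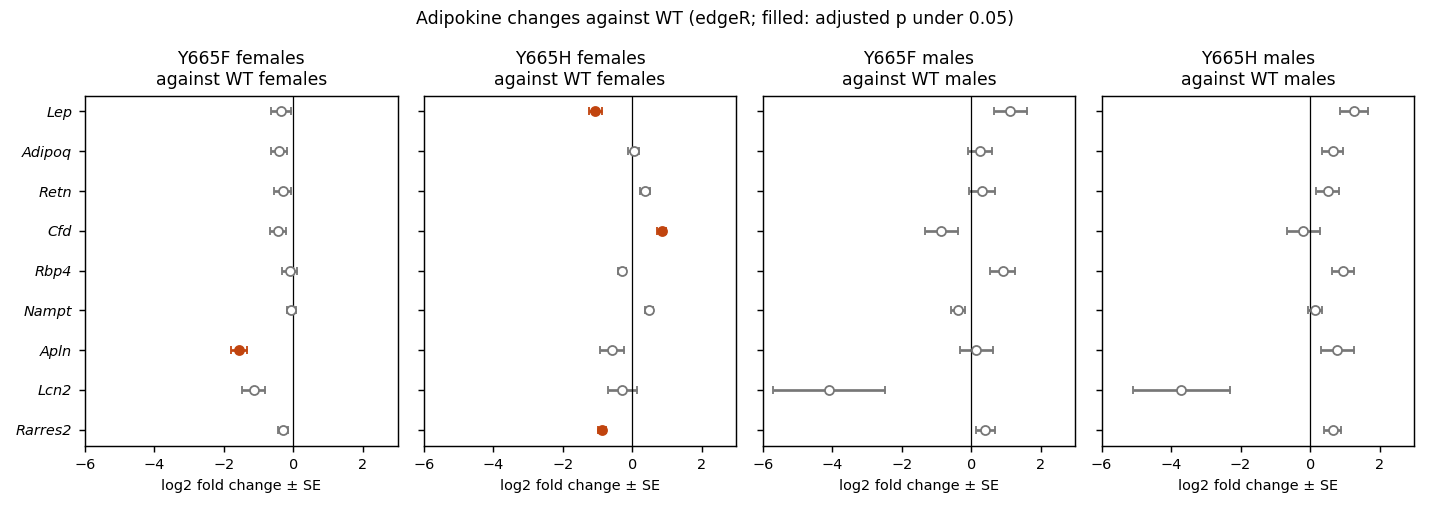
log2 fold change ± SE of the 9 adipokines in 4 comparisons with WT (edgeR), on a common axis, with filled points for an adjusted p under 0.05. Filled points are Apln in Y665F females (-1.56) and Lep (-1.06), Cfd (0.85) and Rarres2 (-0.87) in Y665H females, and no point is filled in males.

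The within-library ratio of Lep to Adipoq counts needs no scaling between libraries. It was 0.737, 0.811, 0.529 and 0.566 in WT females and 0.295, 0.451, 0.278 and 0.209 in Y665H females, and the groups did not overlap. The mean log2 ratio differed by -1.13, a geometric mean of 0.297 against 0.651, with a two-sided exact permutation p of 0.0286, the smallest that 4 against 4 allows. Over the 7 comparisons made with this ratio, the Benjamini-Hochberg adjusted value of this exact test was 0.1, so the ratio did not pass after correction. Y665F females had a geometric mean of 0.644, and Y665H females lay below them by 1.12 on the log2 scale with the same exact p of 0.0286. The other 5 comparisons of the ratio gave exact permutation p from 0.171 to 1.

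**Figure D3:**
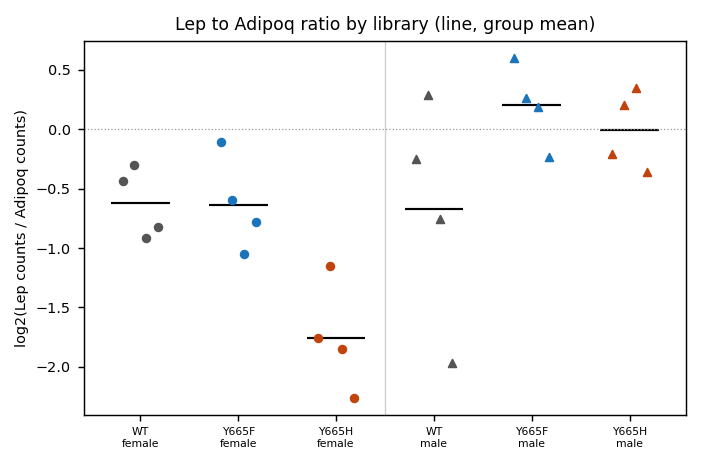
log2 of Lep counts over Adipoq counts in each library, with a bar at the group mean and a dotted line at equal counts. The 4 Y665H females lie between -2.26 and -1.15, below all other females, and WT males spread from -1.97 to 0.29.

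In Y665F females, apelin was the member that changed. Apln held 22.9, 39.4, 22.5 and 32.1 CPM in WT females and 10.1, 11.6, 7.86 and 13.8 CPM in Y665F females. All 4 Y665F libraries lay below all 4 WT libraries, and the log2 fold change was -1.56 (SE 0.24), a 2.96-fold lower level, with an adjusted p of 0.0201 in edgeR. Of the 9 adipokines this 1 fell and none rose, beside 1.02% and 2.31% of 15642 tested genes (3.33% in all). It was also the 1 adipokine that was lower without overlap, and none was higher, beside 2.96% and 19.9% of all genes (22.9% in all).

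The other 8 adipokines did not pass, and all 9 fitted changes were below 0, with a median of -0.35 beside 0.02 for all genes. Lcn2 stood at 0.204 to 0.343 CPM against 0.271 to 0.648 CPM, or 6 to 10 counts a library against 10 to 25 (log2 fold change -1.14, adjusted p 0.0942 in edgeR). Lep (-0.35), Adipoq (-0.40), Retn (-0.31), Cfd (-0.45) and Rarres2 (-0.30) had similar values, and Rbp4 (-0.10) and Nampt (-0.06) were closest to 0. With library totals in place of TMM scaling the median of all genes moved from 0.02 to 0.15, and Rbp4 (0.03) and Nampt (0.08) came out above 0 though still below that median.

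Adipocyte markers were lower by a similar amount in this comparison: 12 of 12 had a fitted change below 0, none called, with a median of -0.45. Their summed level was 14595 to 26054 CPM in Y665F and 26708 to 28592 CPM in WT females, without overlap. In bulk tissue, fewer cells of a type and less RNA per cell cannot be told apart. Other cell type markers moved too: 4 of 5 tested thermogenic adipocyte genes (Ucp1, Cidea, Cox8b and Cox7a1) fell, 5 of 7 T and NK cell genes rose, 2 of 6 B cell genes rose, and 1 of 6 endothelial genes, Emcn, fell within a list whose median was -0.43. Macrophage (8 of 8 above 0, median 0.46), fibroblast (0.08), mesothelial (0.26), epithelial (2.65), hepatocyte (-0.19) and erythroid (-0.34) genes had no call. The part of these shifts in the values of Apln was not tested beyond a covariate. With the adipocyte markers as a covariate Apln was -1.11 with an adjusted p of 0.194 in edgeR, and with the skeletal muscle markers, whose sum was 121 to 819.6 CPM in WT and 64.5 to 189 CPM in Y665F females, -1.73 with an adjusted p of 0.0937. The call was also lost without WT female 2 or 4 or Y665F female 1 or 4, with adjusted p up to 0.0736.

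The apelin receptor was lower alongside apelin. Aplnr, a G protein-coupled receptor of endothelium, held 46.0, 62.1, 33.9 and 60.2 CPM in WT females and 20.4, 32.0, 22.4 and 25.5 CPM in Y665F females (log2 fold change -1.14, SE 0.22, adjusted p 0.0363 in edgeR). All 6 endothelial markers were below 0 too (median -0.43). These markers summed to 623 to 811 CPM in Y665F and 826 to 1086 CPM in WT females. Their part in the values of Apln and Aplnr was not tested. Both adiponectin-binding genes that were called fell as well. Adipor2 held 873, 799.8, 957 and 857 CPM in WT and 644, 658, 579 and 647 CPM in Y665F females (-0.60, adjusted p 0.0285), and Cdh13, the T-cadherin that binds large adiponectin complexes, held 24.4 to 36.9 CPM against 21.1 to 22.8 CPM (-0.61, adjusted p 0.0446). In all, 3 of 12 receptors and binding partners fell and none rose, beside 1.02% and 2.31% of all genes. The list median was -0.22, beside 0.02 for all genes. Lepr (0.48), Adipor1 (-0.19), Stra6 (-1.11, adjusted p 0.0514), Slc22a17 (-0.26) and Cmklr1 (-0.53) did not pass. None of the 3 calls was kept with the adipocyte or the muscle markers as covariate, where the log2 fold changes were -0.84 and -1.08 for Aplnr, -0.41 and -0.65 for Adipor2 and -0.53 and -0.64 for Cdh13, and where 3 and 0 genes of all were called. Without 1 library at a time, Aplnr kept its call in 3 of 8 fits and Adipor2 and Cdh13 each in 1 of 8. Adipor2 and Cdh13 also lost their calls with all 24 libraries in 1 fit, Adipor2 with the replicate block and Cdh13 with library totals.

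**Figure D4:**
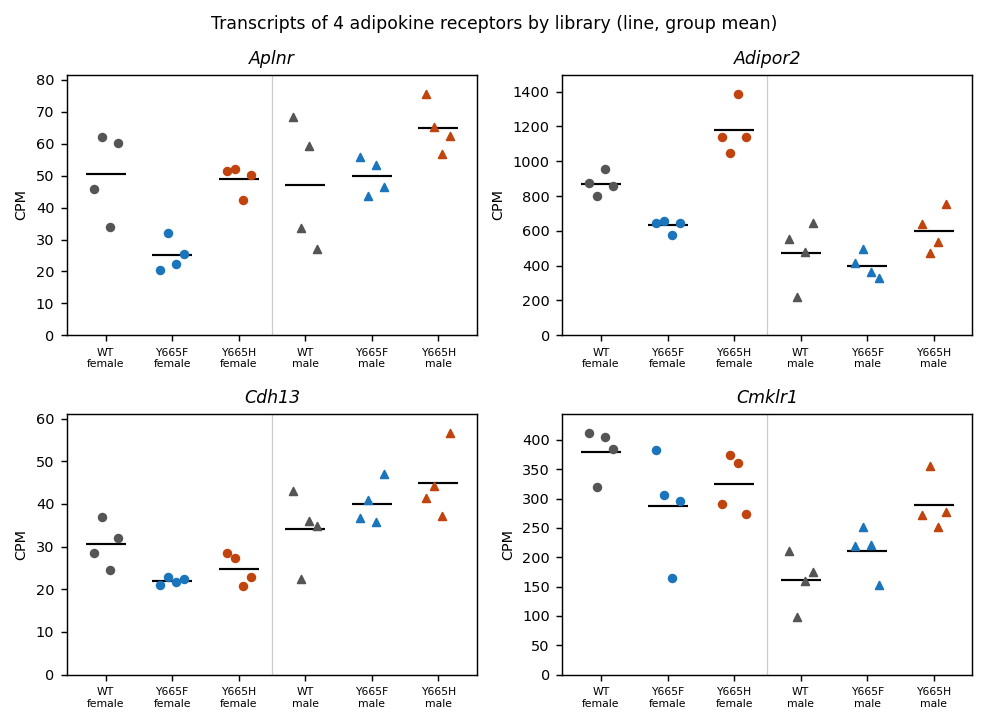
CPM of 4 adipokine receptor genes (linear axes from 0) in the 24 libraries, with a bar at each group mean. Aplnr, Adipor2 and Cdh13 are lower in Y665F females than in WT females, Adipor2 is highest in Y665H females at 1048 to 1387 CPM, and Cmklr1 is lower in WT males (98.9 to 210.3 CPM) than in WT females (319 to 412 CPM).

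Among the other secreted factors described here, Nrg4 fell in Y665F females and none rose. Nrg4, a growth factor released by brown fat, held 59.9 to 76.7 CPM against 25.5 to 47.7 CPM (log2 fold change -0.98, SE 0.21, adjusted p 0.0459 in edgeR). This call was kept in 1 of 8 fits without 1 library, and with the adipocyte covariate the log2 fold change of Nrg4 was -0.39 (adjusted p 0.412). None of the 12 genes for transcription and secretion was called, and their median was -0.21, beside 0.02 for all genes.

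Y665H and Y665F females differed from each other in 3 adipokines, 2 higher and 1 lower in Y665H. Of all 15493 genes tested, 8.77% were called higher and 8.59% lower (17.4% in all). Cfd differed most, with 7346 to 8909 CPM in Y665H and 2396 to 4366 CPM in Y665F females (log2 fold change 1.29, SE 0.23, adjusted p 0.00755 in edgeR). This call was kept in each of the 8 fits that left out a library, with adjusted p up to 0.0274, and lost with the adipocyte covariate (adjusted p 0.0963). Nampt, the NAD salvage enzyme, was higher in Y665H females by 0.54 (SE 0.13, adjusted p 0.0215), though the highest Y665F library (120.2 CPM) lay within the Y665H range of 116 to 157 CPM. Rarres2 was lower by 0.56 on the log2 scale (SE 0.13, adjusted p 0.0190), with 30.6 to 38.8 CPM against 47.5 to 64.5 CPM and no overlap. Cfd was thus higher and Rarres2 lower without overlap, beside 6.62% and 21.5% of all genes (28.1% in all). Nampt and Rarres2 each lost the call in some fits without 1 library (adjusted p up to 0.0561 and 0.0615), Nampt without Y665F female 1 or 2 or Y665H female 3 and Rarres2 without Y665F female 1 or Y665H female 1. Nampt also lost the call with library totals (adjusted p 0.0685 in edgeR) and with the adipocyte (0.156) or muscle covariate (0.120), and Rarres2 with all 24 libraries in 1 fit (0.0935) and with the muscle covariate (0.0906).

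Lep was lower by 0.71 on the log2 scale in Y665H than in Y665F females and did not pass (adjusted p 0.156 in edgeR). It passed without Y665F female 3, whose Lep level of 501 CPM was the only one of its group under 1148 CPM (adjusted p 0.0136). That library also had the lowest Cfd, Adipoq, Retn, Rbp4, Apln and Rarres2 of the Y665F females and the lowest adipocyte marker sum of all females, 14595 CPM. Apln was 0.97 higher in Y665H females (10.2 to 33.6 CPM against 7.86 to 13.8 CPM, adjusted p 0.0891), and in DESeq2 it passed with an adjusted p of 0.0243. Retn was 0.67 higher (adjusted p 0.0990) and also passed in DESeq2, with 0.0310.

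A receptor of adiponectin, Adipor2, and the apelin receptor, Aplnr, differed between the female mutants where their ligands were not called. The difference between receptor and ligand was not tested. Of the 12 receptors and binding partners, these 2 were called higher in Y665H and none lower, so Adipor1 and Cdh13 were not called. Of all genes 8.77% were called higher and 8.59% lower (17.4% in all). Adipor2 was 1.04 higher on the log2 scale in Y665H than in Y665F females (SE 0.12, adjusted p 0.00212 in edgeR) and Aplnr 1.11 higher (SE 0.16, adjusted p 0.00337). Both calls were kept under all 7 alternatives with every library and without each library in turn. Of the 14 other secreted factors tested, 1 was called higher and 3 lower, beside the same shares of all genes. Nrg4 was 1.45 higher (adjusted p 0.00510), and Retnla (-1.95, adjusted p 0.00469), Sfrp5 (-1.83, adjusted p 0.0302) and Metrnl (-0.73, adjusted p 0.0140) were lower. Retnla held 159.8 to 377 CPM in Y665F and 47.9 to 90.1 CPM in Y665H females. Of the 12 genes for transcription and secretion, 2 were called higher and none lower. Pparg, the master regulator of adipocyte genes, was 0.56 higher (adjusted p 0.0292), and the lipogenic regulator Srebf1 1.10 higher (adjusted p 0.0136). The calls of Nrg4 and Retnla were kept in all of these fits as well. Pparg lost its call under 5 of 7 alternatives and in 5 of 8 fits without 1 library, with a value of 0.25 under the adipocyte covariate. Srebf1 lost its call with the adipocyte covariate (0.63), Metrnl with the muscle covariate, and Sfrp5 under 3 of 7 alternatives and in 6 of 8 fits without 1 library. Markers of other cells differed between these groups too, beside the same shares of all genes. In Y665H, 5 of 8 macrophage, 4 of 7 T and NK cell and 5 of 6 B cell genes were lower, and 3 of 8 muscle genes were higher. All 12 adipocyte genes were above 0 (median 0.47, with Gpd1 called), and so were all 6 thermogenic genes (median 3.61), of which Ucp1, Cidea, Cox8b and Elovl3 were called. Elane, again the 1 neutrophil gene tested, and the endothelial Emcn were called higher too. The part of these markers in the values above was not tested beyond the covariates.

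In males no adipokine was called in either mutant, and neither was any other gene: 0% of 16240 genes for Y665F and 0% of 16406 for Y665H against WT, in edgeR. At an unadjusted p under 0.05 there were 2772 and 1874 genes. DESeq2 called 1129 and 119 genes, again without an adipokine. Lep held 1167, 620.1, 631 and 306 CPM in WT males, 1944, 1835, 1236 and 735 CPM in Y665F males and 1319, 1942, 1852 and 1435 CPM in Y665H males. The Y665H libraries all lay above the WT ones, the Y665F libraries did not, and the log2 fold changes were 1.12 (SE 0.48, adjusted p 0.287 in edgeR) for Y665F and 1.27 (SE 0.40, adjusted p 0.402) for Y665H.

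Adipoq, too, was higher in every Y665H male (1460.0 to 1842 CPM) than in any WT male (508 to 1391 CPM), with a log2 fold change of 0.65 (adjusted p 0.402 in edgeR). These 2 were the only members without overlap between Y665H and WT males, where 2.43% of all genes were higher and 1.18% lower without overlap (3.6% in all). Every adipokine overlapped between Y665F and WT males, where 5.59% of all genes were higher and 3.26% lower without overlap (8.85% in all). Rbp4, the carrier of retinol, was 0.91 higher in Y665F and 0.95 higher in Y665H males, and Rarres2 0.40 and 0.65 higher, all without passing. Cfd was 0.86 lower in Y665F and 0.20 lower in Y665H males, with 1671 to 2601 and 2259 to 4677 CPM against a WT range from 1077 to 5561 CPM. Apln held 10.3 to 41.7 CPM in WT, 15.4 to 30.4 CPM in Y665F and 23.9 to 50.2 CPM in Y665H males, with changes of 0.15 and 0.79 that did not pass. Both comparisons share the WT males as controls. For Cfd and Nampt, the overlap of Y665F with WT males came from WT male 2 alone. That library held 1077 CPM of Cfd and 56.1 CPM of Nampt. The other WT males held 3841 to 5561 CPM of Cfd and 95.8 to 108 CPM of Nampt. Nampt was at 65.4 to 70.5 CPM in Y665F males. WT male 2 also had the lowest Adipoq, Retn, Rbp4 and Rarres2 of the WT males. Its adipocyte marker sum was their lowest and its epididymis marker sum their highest.

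Adipocyte markers were also higher in both male comparisons, with 12 of 12 above 0 and a median of 0.23 for Y665F and 11 of 12 and 0.38 for Y665H, and none called. The summed level was 10228 to 26620.3 CPM in WT, 15505 to 27195 CPM in Y665F and 25376 to 28539 CPM in Y665H males. With these markers as a covariate, Adipoq in Y665F males was -0.06. With all 24 libraries in 1 fit, Rbp4 (higher, adjusted p 0.0439) and Lcn2 (lower, 0.0191) were called in Y665F males in edgeR.

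Between the male mutants no adipokine was called, while 0.125% of 15986 genes were higher and 0.901% lower in Y665H (1.03% in all). Nampt came closest, with 65.4 to 70.5 CPM in Y665F and 82.0 to 113 CPM in Y665H males, no overlap, a log2 fold change of 0.52 (SE 0.10) and an adjusted p of 0.0529 in edgeR. DESeq2 called it, with an adjusted p of 6.87e-05. Between the female mutants the log2 fold change of Nampt was 0.54, and the difference between the sexes was not tested. It was the 1 adipokine without overlap, where 6.29% of all genes were higher and 6.17% lower (12.5% in all). All 9 members had fitted values above 0 between Y665H and Y665F males, with a median of 0.37 beside -0.02 for all genes, and adipocyte markers had 9 of 12 above 0 with a median of 0.11.

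Lcn2 was the member with the widest spread, and its level in several males stood beside high levels of genes of the epididymis, the sperm duct that lies against a male fat pad. WT males held 8.52, 1279.9, 143 and 50.5 CPM of Lcn2, and their epididymis markers summed to 1.30, 14903, 3268 and 1217 CPM in the same order. Y665F males held 4.85, 3.64, 16.5 and 60.4 CPM of Lcn2 beside 362, 0.502, 0.763 and 954 CPM of the markers, and Y665H males 36.4, 7.04, 21.5 and 47.7 CPM beside 12.8, 2.08, 1605 and 166 CPM. The 2 highest Lcn2 libraries were those with the 2 highest marker sums, but Y665F male 3 had 16.5 CPM of Lcn2 with markers at 0.763 CPM.

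The fitted change of Lcn2 in Y665F males against WT males was -4.10 (SE 1.61, adjusted p 0.266 in edgeR) and in Y665H males -3.71 (SE 1.40, adjusted p 0.402), neither of them called. With the epididymis markers as a covariate, added after the data were seen, the values turned to 0.83 (adjusted p 0.879) and 1.06 (adjusted p 0.999). Without WT male 2 they were -1.62 and -1.26. Neutrophils are a known source of Lcn2, and their markers summed to 0.995 to 4.28 CPM in males and 1.30 to 2.74 CPM in females. The part of the epididymis, neutrophils or other cells in these values was not tested beyond the covariate.

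**Figure D5:**
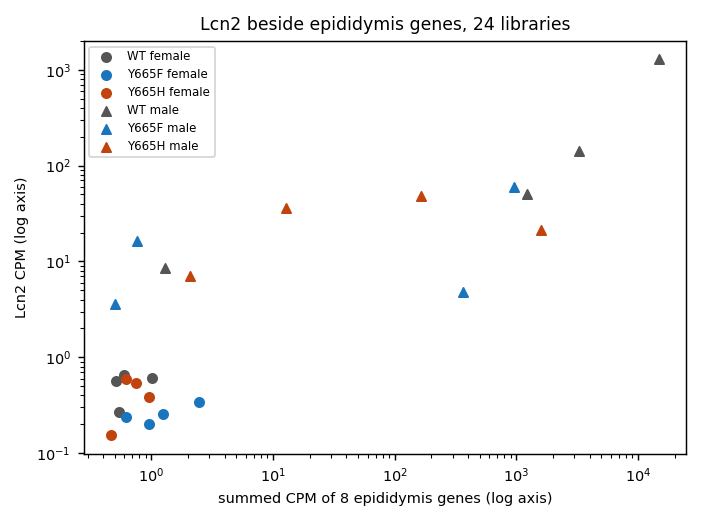
Lcn2 CPM against the summed CPM of 8 epididymis genes in the 24 libraries, both on log axes. Females cluster at the lower left, and the WT male with the highest marker sum (14903 CPM) has the highest Lcn2 (1279.9 CPM).

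Whether the effect of a mutation differed between the sexes was tested with an interaction term over 16 libraries. The depot is not named for either sex. An effect that differs by depot could therefore not be told apart here from one that differs by sex. No adipokine was called, beside 0% of 16732 genes for Y665F and 0.0119% of 16827 genes (2 genes) for Y665H. At an unadjusted p under 0.05 there were 3645 and 3079 genes, and DESeq2 called 1169 and 711. The gap was wide for Lep in Y665H, with -1.06 in females and 1.27 in males, so that the sexes differed by 2.32 (SE 0.47, adjusted p 0.0684 in edgeR). Rarres2 had -0.87 in females and 0.65 in males, a difference of 1.51 (SE 0.28, adjusted p 0.0613). DESeq2 called both, with adjusted p of 0.000232 and 0.000189, as well as Rbp4 (1.23, adjusted p 0.0324).

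Both interactions also passed with library totals (adjusted p 0.0398 for Lep and 0.0388 for Rarres2 in edgeR), with all 24 libraries in 1 fit (0.0387 and 0.0246) and without WT male 1 (0.00280 and 0.00188). They did not pass with the epididymis covariate (0.288 and 0.259). For Y665F, the interaction of Apln was 1.70 (SE 0.57, adjusted p 0.146 in edgeR, and 0.0452 in DESeq2), and without WT male 1 it passed with 0.0141. WT male 1 had the highest Lep, Adipoq, Rbp4, Apln and Rarres2 of the WT males and the lowest epididymis marker sum among them.

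Between WT males and WT females 2 adipokines were called, Rbp4 lower and Lcn2 higher in males, beside 5.95% and 7.15% of 15865 tested genes (13.1% in all). Rbp4 held 298, 126, 155 and 145 CPM in males and 381, 423, 395 and 394 CPM in females, a log2 fold change of -1.27 (SE 0.29, adjusted p 0.0290 in edgeR). The groups did not overlap, though male 1 lay closer to the females than to the other males. Lcn2 held 0.271 to 0.648 CPM, or 10 to 25 counts, in WT females and at least 8.52 CPM in WT males (log2 fold change 9.31, SE 1.74, adjusted p 0.0181), and without WT male 2 the value was 6.85. The Lcn2 call was lost without each of the 4 WT females in turn (adjusted p up to 0.0730), and the Rbp4 call in 6 of 8 such fits, all but those without WT male 1 or 2 (up to 0.0865).

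Retn (-1.13, adjusted p 0.0607 in edgeR) and Adipoq (-0.99, adjusted p 0.0662) were lower in every WT male than in any WT female without being called. In all, 1 member was higher and 3 lower without overlap, beside 18.2% and 7.01% of all genes (25.2% in all). DESeq2 called Lep (-0.97), Adipoq (-1.01) and Retn (-1.14) as well. Without WT male 1, 7 of the 9 were called in edgeR. Adipocyte markers had a median log2 fold change of -0.72, with 11 of 12 below 0 and 1 call, Gpd1. Among other markers 5 of 5 thermogenic, 5 of 6 fibroblast, 7 of 8 muscle, 1 of 6 mesothelial (Upk3b) and 1 of 3 hepatocyte genes (Alb) were lower in males, and 2 of 6 epithelial (Epcam and Krt14) and 2 of 2 tested epididymal genes higher. With the adipocyte covariate no adipokine was called (Rbp4 adjusted p 0.213, Lcn2 0.0627), and with the epididymis covariate Lcn2 alone was (3.52, adjusted p 0.0302). The labels do not say whether both sexes were sampled from the same depot, and a difference of depot could not be told apart from sex.

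Of the 12 receptors and binding partners, 1 was called lower in WT males and none higher. Of all genes 5.95% were called lower and 7.15% higher (13.1% in all). The 1 was Cmklr1, the receptor of chemerin, with 210.3, 98.9, 159 and 175 CPM against 412, 319, 405 and 384 CPM in WT females (log2 fold change -1.38, SE 0.23, adjusted p 0.0134 in edgeR). Of the 15 other secreted factors tested, 2 were called higher and none lower, beside the same shares of all genes. Agt, the precursor of angiotensin, was higher (1.33, adjusted p 0.0290), and Grem1, an inhibitor of BMP signals, averaged 2.17 CPM in males and 0.0133 CPM in females, which is under the detection limit (adjusted p 0.00371). Esr1, the estrogen receptor, was lower in males (-1.34, adjusted p 0.00371), and the other 11 genes for transcription and secretion were not called. With the epididymis covariate, under which 126 genes of all were called in place of 2079, Grem1 kept its call and Cmklr1 (-0.86), Agt (1.54) and Esr1 (-1.22) lost theirs. Agt also lost its call with the adipocyte covariate and in 6 of 8 fits without 1 library, and Cmklr1 in 3 of 8.

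Over the 24 libraries, the genes whose pattern came closest to each adipokine were found among the 9903 genes that averaged 10 CPM or more. The measure was the root mean square difference of centred log2(CPM + 1) values, with CPM scaled by TMM here. Rarres2 had the closest partner, Klhl5 (0.16), followed by Fzd4 (0.18), and Nampt was closest to Klhl7 (0.17) and Tbc1d31 (0.18). Adipoq and Retn shared a near partner, Dhdh (0.18 and 0.22), beside Amy1 for Adipoq (0.19) and Aldh1l1 for Retn (0.20). Lep was nearest to Adamts5 (0.26) and Npr3 (0.30), Rbp4 to Cd1d1 (0.24) and Map6 (0.25), Cfd to Slc5a6 (0.31) and Slc1a3 (0.32), and Apln to Pcdh12 (0.34) and Bcl6b (0.36). Lcn2, with a standard deviation of 2.73 over the libraries, was nearest to Cldn2 (0.55) and Cdh16 (0.56). These are descriptions over libraries that share tissue makeup and sequencing depth, and carry no test.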

How the data were processed

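The authors deposited 1 table of read counts per gene symbol for each of the 24 libraries. Per the labels, RNA was depleted of ribosomal RNA and libraries were made with a stranded total RNA kit and sequenced in pairs. FastQC 0.11.9, Trimmomatic 0.36, STAR, SAMtools 1.9, Picard 2.9.2, HTSeq 0.9.1 and the build mm10 are named in the submitters' processing notes, without roles. The annotation and the strand setting of the counting are not given in the sources used here. The 5 entries that name no gene (24.8 to 39.7% of all counts) were left out.

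CPM were computed from the deposited counts over the total on gene symbols. Exon lengths came from GENCODE vM21, and promoters from RefSeq. Each comparison was fitted on its own groups with edgeR 4.0.16 (R 4.3.3, limma 3.58.1): TMM scaling, filterByExpr, quasi-likelihood F test, Benjamini-Hochberg adjustment over all genes tested. The edgeR and DESeq2 scripts were tested on simulated data. The Lep to Adipoq ratio had an exact permutation test. No 2 libraries of a group agreed within sampling noise. Same-numbered replicates were not treated as pairs, since their deviations from the group means correlated from -0.38 to 0.73 and in no comparison were all above 0.1.

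The members and lists were chosen with earlier results of these data known. Named genes are the 9 adipokines in every comparison, the receptor of each adipokine, the pathway genes called in a comparison with WT, and the 2 nearest genes of each adipokine. Pathway genes called between mutants or between WT sexes were named after their values were seen. 1 listed secreted factor is not reported here. Lists were read by counts and medians only: pathway lists (receptors, other secreted factors, transcription and secretion), and markers of adipocytes, thermogenic adipocytes, macrophages, neutrophils, T and NK cells, B cells, endothelium, fibroblasts, mesothelium, epithelium, epididymis, muscle, hepatocytes and erythroid cells. Alternatives were DESeq2 1.42.0, no filter, library totals, 1 fit of all 24 libraries, a replicate block, the adipocyte list as covariate, a pseudocount of 1 CPM for the ratio, and each library left out. The epididymis and muscle covariates were chosen after seeing the data.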

Additional observations from a re-analysis of the deposited data

Results flagged for a closer look

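In 4 of the 60 sets of 4 libraries checked (9 adipokines and the Lep to Adipoq ratio in 6 groups), 1 library stood far from the other 3 of its group: its gap to the nearest, as a share of the group's range, exceeded Dixon's critical value. Chance alone flags about 5% of such sets. WT female 2 had 1155 CPM of Retn, with 825 to 869.9 CPM in the others. WT male 1 had 298 CPM of Rbp4, with 126 to 155 CPM in the others. WT female 3 had 113 CPM of Nampt, with 86.2 to 90.0 CPM in the others. WT male 2 had 1279.9 CPM of Lcn2, with 8.52 to 143 CPM in the others.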

How the results depend on the processing

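Of 567 values refitted with every library, 492 kept their direction and side of the threshold, 17 lost a call, 22 gained one and 36 changed sign, none of them a called one. Of 792 without 1 library, 732 kept both, 29 lost a call, 18 gained one and 13 changed sign, none of them called. The cause was not tested. Depth limits the values of Lcn2 in females, at 10 to 25 counts a library in WT.

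Adipokines called, with 1, 0, 3, 0, 3, 0, 2, 0 and 0 in the order of Y665F females and males, Y665H females and males, Y665H against Y665F females and males, WT males against females, and Y665F and Y665H by sex, changed as follows. DESeq2 called 4 in Y665H females, 5 between the female mutants, 1 between the male mutants, 5 between WT sexes, 1 in Y665F by sex and 3 in Y665H by sex. All 24 libraries together gave 2 in Y665F males, 1 in Y665H females, 2 between the female mutants, 5 between WT sexes and 2 in Y665H by sex, and library totals gave 2 between the female mutants and 2 in Y665H by sex. With the adipocyte covariate there were 0 in Y665F females, 2 between the female mutants, 1 between the male mutants and 0 between WT sexes. The muscle covariate gave 0 in Y665F females and 1 between the female mutants, and the epididymis covariate 1 between WT sexes. Otherwise these settings, and no filter on low counts, left the number the same. Without 1 library the counts ran from 0 to 1 in Y665F females, 0 to 4 in Y665H females, 1 to 5 between the female mutants, 0 to 7 between WT sexes, 0 to 4 in each test by sex, and were 0 in the other comparisons.

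With the replicate block, on numbers that do not pair the samples, 0 adipokines were called in Y665H females (Lep, Cfd and Rarres2 each 0.0617 in edgeR) and 1 between WT sexes, and the block moved the calls of all genes to 32 in Y665H females, 1583 between the female mutants, 0 between the male mutants, 825 between WT sexes and 1 in Y665H by sex. No more than 2 of 4 libraries of a group correlated best with their own number. The log2 ratio of Lep to Adipoq, at -1.13 against WT and -1.12 against Y665F in Y665H females, had an exact sign-flip p of 0.125 over the block's pairs, the smallest possible.

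Signs changed as follows (log2). With library totals in Y665F females, Rbp4 was 0.028 and Nampt 0.078. With the adipocyte covariate, Lep was 0.46, Adipoq 0.22, Retn 0.41, Cfd 0.15, Rbp4 0.55 and Nampt 0.059 in Y665F females, Adipoq -0.056, Retn -0.0042 and Apln -0.10 in Y665F males, Nampt -0.12 in Y665H males, Adipoq -0.025 between the female mutants, Lep -0.053 and Rbp4 -0.15 between the male mutants, Cfd 0.58, Nampt 0.25, Apln 0.094 and Rarres2 0.093 between WT sexes, Adipoq -0.23, Retn -0.33 and Lcn2 1.72 in Y665F by sex, and Retn -0.21 in Y665H by sex. With the epididymis covariate, Adipoq was -0.25, Retn -0.10, Apln -0.32 and Lcn2 0.83 in Y665F males, Nampt -0.083 and Lcn2 1.06 in Y665H males, Cfd 0.21, Nampt 0.11, Apln 0.16 and Rarres2 0.16 between WT sexes, Lcn2 2.01 in Y665F by sex, and Retn -0.23 and Lcn2 1.36 in Y665H by sex.

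Without 1 library, Rbp4 ran from -0.29 to 0.070 and Nampt from -0.16 to 0.037 in Y665F females, Apln from -0.086 to 0.73 in Y665F males, Adipoq from -0.066 to 0.14 in Y665H females, Cfd from -0.49 to 0.0033 and Nampt from -0.015 to 0.26 in Y665H males, Rbp4 from -0.36 to 0.0064 between the female mutants, Lep from -0.095 to 0.31 and Rbp4 from -0.15 to 0.17 between the male mutants, and Retn from -0.080 to 0.38 in Y665H by sex. The log2 ratio of Lep to Adipoq ran from -0.19 to 0.12 in Y665F females, 0.45 to 1.2 in Y665F males, -1.33 to -0.97 in Y665H females, 0.23 to 0.98 in Y665H males, -1.32 to -0.94 and -0.36 to -0.08 between the female and the male mutants, and -0.37 to 0.38 between WT sexes.

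Calls over all genes in edgeR were 521 in Y665F females, 516 in Y665H females, 164 between the male mutants and 2079 between WT sexes. They moved by over 1.5 times to 2047, 1751, 1085 and 4483 with DESeq2. All 24 libraries together gave 2261 in Y665F and 203 in Y665H males, 250 in Y665H females, 400 between the male mutants, 5987 between WT sexes and 201 in Y665H by sex. Library totals gave 1164 in Y665F females and 72 in Y665H by sex. The adipocyte covariate gave 3 in Y665F females, 20 in Y665F males, 885 between the female and 645 between the male mutants, and 191 between WT sexes, the muscle covariate 0 in Y665F females and 1773 between the female mutants, and the epididymis covariate 67 between the male mutants and 126 between WT sexes. The share of calls that were higher was 69.3% in Y665F females, with 48.2% in DESeq2 and 88.1% with library totals. It was 12.2% between the male mutants (40.5% in DESeq2), 50.5% between the female mutants (24.9% with totals) and 54.6% between WT sexes (75.8% with totals). Library totals moved the median of all genes from -0.03 to -0.18 between the female mutants, 0.04 to 0.22 between WT sexes and -0.06 to -0.25 in Y665F by sex.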
